A study of Nothobranchius furzeri with 20 samples.

Results

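Liver transcripts of 27-week-old turquoise killifish (Nothobranchius furzeri) were compared with those of 9-week-old fish. Both groups were male, of the strain MZM-04/10p, and carry the label swim-tunnel for their perturbation. The 27-week libraries were chosen by their sample titles, which run from JM132 to JM136, and the 9-week libraries are those from JM117 to JM121. They make 5 libraries against 5, and 10 of the 20 libraries of the series. The remaining 10 libraries are 5 exercised livers at 27 weeks with the titles JM140 to JM144 and 5 livers at 9 weeks whose perturbation is none. Replicates are numbered 1 to 5 in title order. The labels give the titles JM132 to JM136 and JM140 to JM144 the same age, strain, sex and exercise, and what the title numbers stand for is not given in the sources used here. Whatever marks the titles JM132 to JM136 can therefore not be told apart from age in this comparison. There is no unexercised group at 27 weeks among the samples. Nothing in the labels ties a library to a fish of its own, and p-values here therefore cover the spread between libraries, which may be technical.

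The turquoise killifish is an annual fish of seasonal ponds and is used to study ageing because it matures and ages quickly. In vertebrates the hepatocyte secretes most plasma proteins, among them albumin, apolipoproteins, clotting factors and complement, and a small number of transcripts for such proteins fills much of a liver library. A shift in those few transcripts changes the share left for all others, so the scaling between libraries bears on the direction of every weaker transcript. The files give identifiers without gene names, and 0 of 26739 identifiers matched the RefSeq gene table (assembly NfurGRZ-RIMD1). Genes are therefore described by abundance, length and level, 4 are given by identifier, and the liver label could not be checked against marker genes.

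Total counts ran from 28.2 to 44.6 M (M, mega) in the 27-week livers and from 34.0 to 38.8 M in the 9-week livers. The number of genes with a count was 20241 ± 300 and 20215 ± 155 (SD, n = 5 each). Neither depth nor the number of detected genes differed beyond the spread (exact permutation p = 0.722 and 0.905, two-sided). The TMM factor, which rescales each library so that most genes show no change, was between 0.991 and 1.08 in 27-week replicates 1 to 3, 1.36 in replicate 4 and 1.34 in replicate 5. At 9 weeks it lay between 0.851 and 0.903 in all 5 libraries. The groups did not overlap, and the difference had the smallest p that this design can give (exact permutation p = 0.0079, two-sided, adjusted p = 0.040 over 5 library measures). With 1 library left out, the smallest possible p is larger, and the adjusted p was 0.079 for every library but 9-week replicate 5. The 100 most abundant genes of each library took 50.0%, 48.3%, 49.9%, 40.0% and 39.1% of the counts in 27-week replicates 1 to 5. Their share at 9 weeks was 51.4% ± 1.36 (SD, n = 5, range 49.0% to 52.5%). Here the groups overlapped, and the difference missed the threshold after adjustment (exact permutation p = 0.024, adjusted p = 0.060, or 0.040 without 9-week replicate 5). The 10 most abundant genes of each library took 22.7%, 22.4%, 24.5%, 17.6% and 18.7% in 27-week replicates 1 to 5. At 9 weeks their share was 17.8% to 21.6%. The means differed by 0.89 percentage points (exact permutation p = 0.548, adjusted p = 0.903), and by 2.90 without 27-week replicates 4 and 5. Replicates 4 and 5 stood apart from replicates 1 to 3 of the 27-week livers in the TMM factor and both shares. Values without them are therefore given beside the results that rest most on them.

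**Figure D1:**
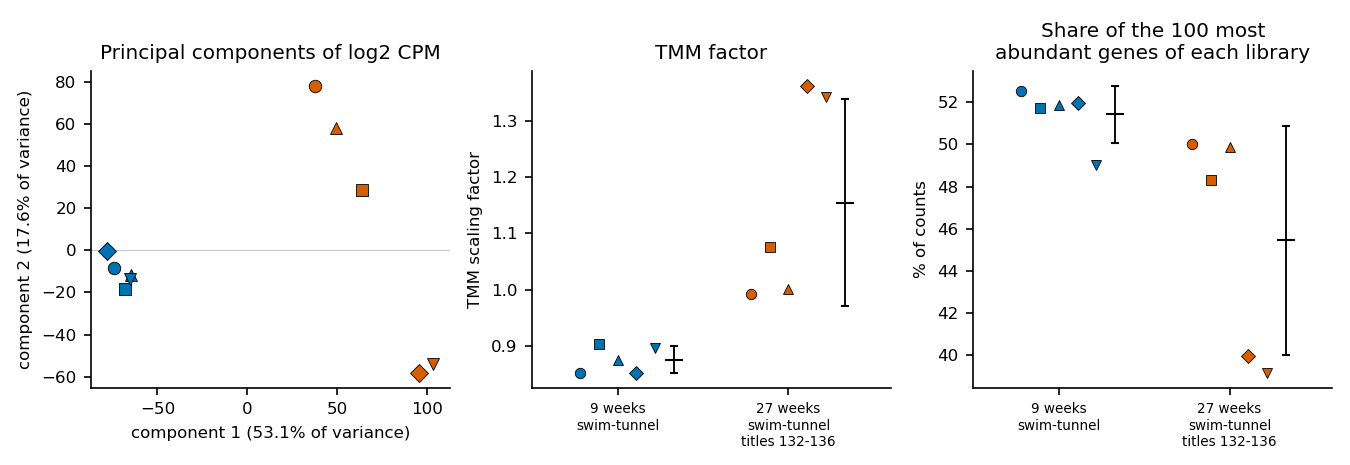
Each point is 1 library, blue for exercised 9 weeks and orange for 27 weeks with titles JM132 to JM136, and circle, square, triangle, diamond and inverted triangle mark replicates 1 to 5. The left panel plots the first 2 principal components of log2 CPM, the middle panel the TMM factor (no unit) and the right panel the percentage of counts that the 100 most abundant genes took, with mean and SD (n = 5) as bars. 27-week replicates 4 and 5 lie far from replicates 1 to 3 in all 3 panels, with TMM factors of 1.36 and 1.34.

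The first principal component of log2 CPM (CPM, the count relative to the TMM-scaled library total) held 53.1% of the variance and separated the groups. The 9-week livers lay between -77.8 and -64.5 on it. The 27-week livers lay at 37.5, 63.9, 49.2, 95.4 and 103.6. The second component held 17.6% and separated the 27-week livers from each other, from 78.1 in replicate 1 to -58.4 in replicate 4, while the 9-week livers spanned -18.5 to -0.32. The correlation of log2 CPM across genes had a median of 0.877 over the 25 pairs of a 27-week and a 9-week library. It was 0.935 over the 10 pairs within the 27-week livers and 0.956 within the 9-week livers. Genes are not independent replicates, and these correlations are descriptions.

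The livers differed in many genes. Of 16462 genes, 5209 (31.6%) were higher and 3880 (23.6%) lower at 27 weeks than at 9 weeks, 55.2% in all (edgeR quasi-likelihood F-test on these 10 libraries, two-sided, Benjamini-Hochberg adjusted p under 0.05). The median change was 2.24-fold among the higher genes and 1.98-fold among the lower ones. At an unadjusted p under 0.05 the count was 10001. The share called was 49.1% to 55.5% with 1 library left out, 50.6% without 27-week replicates 4 and 5, 41.0% without the filter on low counts and 29.2% in a test against a fold of 1.5. In bulk liver, fewer cells of a type and less RNA per cell cannot be told apart. In 6559 genes (39.8% of those tested) every library of one group lay beyond every library of the other, 3721 (22.6%) higher and 2838 (17.2%) lower at 27 weeks. Of the called genes 6511, or 71.6%, had such groups. Without 27-week replicates 4 and 5, where fewer libraries have to lie apart, 8301 of the 16833 genes then tested had such groups. The balance between higher and lower calls rested on the scaling, and on 27-week replicates 4 and 5 as given below. With TMM 57.3% of the called genes were higher, with library totals 78.5%, with DESeq2 size factors 51.9% and with upper-quartile scaling 47.1%. The median log2 fold change of all tested genes moved with it, from 0.09 with TMM to 0.50 with library totals and -0.08 with upper-quartile scaling. Between TMM and library totals 7178 calls were shared in the same direction and 0 were called in opposite directions. A change of scaling shifts the fold changes of all genes almost alike, so opposite calls could hardly arise.

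The calls were present in each 27-week liver. Over the 5209 higher genes, the share in which a library lay above all 9-week livers was 85.0%, 96.3%, 87.2%, 94.6% and 96.0% in replicates 1 to 5. Over the 3880 lower genes, the share in which it lay below all of them was 88.3%, 93.9%, 90.4%, 92.0% and 93.5%. The median log2 difference from the 9-week mean over the higher genes was 0.94, 1.06, 0.94, 1.14 and 1.20, and over the lower genes -0.85, -0.96, -0.88, -1.03 and -1.08. Replicates 4 and 5 thus had the largest differences and replicate 1 the smallest. These genes were chosen on the same libraries, so the values describe the spread among them. Without replicates 4 and 5, 8510 of 16833 genes were called, 4285 higher and 4225 lower. With all 10 libraries 5209 were higher and 3880 lower, so the excess of higher calls was smaller without these replicates. Of the calls without replicates 4 and 5, 4024 higher and 3385 lower genes were shared with the calls of all 10 libraries. When each of the 10 libraries was left out in turn, 7456 genes (82.0% of the calls) passed in all 10 fits in the same direction.

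Called genes made up unequal parts of the libraries. The 3880 lower genes took 50.9% to 54.1% of all counts in the 9-week livers and 30.0% to 33.6% in the 27-week livers. The 5209 higher genes took 6.01% to 6.61% at 9 weeks. At 27 weeks they took 16.8%, 17.7%, 16.9%, 23.5% and 24.6% in replicates 1 to 5. With TMM the lower genes, although fewer, carried far more of the 9-week library than the higher genes, and the share taken by the higher genes was largest in replicates 4 and 5. The sets were called with TMM on these same libraries, and another scaling changes their members. With library totals the 1969 lower genes took 41.1% to 44.2% at 9 weeks and 22.2% to 25.9% at 27 weeks. With upper-quartile scaling the 4821 lower genes, then the larger set, took 60.1% to 63.2% and 38.1% to 42.7%.

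Changes over 2-fold were called in 3069 higher genes (18.6% of those tested) and 1896 lower genes (11.5%). Over 8-fold there were 277 higher (1.68%) and 101 lower genes (0.614%), and over 16-fold 61 and 18. The largest rise was 8.15 and the largest fall was -6.58 on the log2 scale. The 277 genes over 8-fold higher had a median of their mean levels of 1.21 CPM at 9 weeks and 14.7 CPM at 27 weeks. The 101 genes over 8-fold lower went from 18.8 CPM at 9 weeks to 1.29 CPM at 27 weeks, by the same measure. Libraries shared these changes unevenly. Of the 277, 166 (59.9%) had groups that did not overlap, and in 48 a single 27-week library held over 50% of the summed CPM of its group. Of the 101, 91 (90.1%) had groups that did not overlap, and in 8 a single 9-week library held over 50%. Among all called genes 71.6% had groups that did not overlap. A single library held over 50% in 17.3% of the genes over 8-fold higher and 7.92% of those over 8-fold lower. Over 2-fold it did so in 4.27% of the higher and 1.90% of the lower genes. The differences between these shares were not tested. No gene was silent in all 5 livers of one group with at least 10 counts in each liver of the other. At any count above 0, 7 genes were seen in all livers of titles JM132 to JM136 and in no exercised 9-week liver. For 1 gene it was the other way. The other livers of the series were not part of this count.

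**Figure D2:**
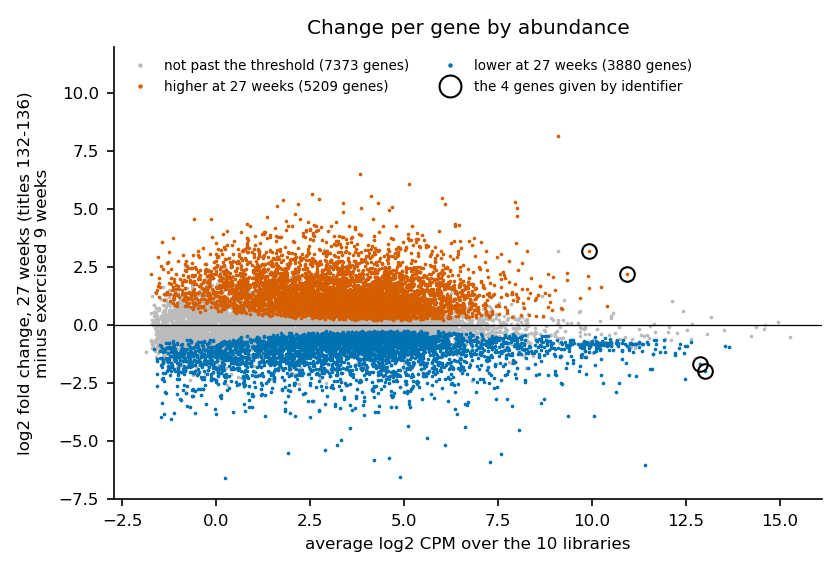
Each point is 1 of 16462 genes, with its average log2 CPM over the 10 libraries on the x axis and its log2 fold change, 27 weeks (titles JM132 to JM136) minus exercised 9 weeks, on the y axis. Orange and blue points passed the threshold (5209 higher, 3880 lower), grey points did not, and of the 164 genes over 1000 CPM on the right 112 passed as lower and 3 as higher.

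Among abundant transcripts lower calls outnumbered higher ones. Of 164 genes with a mean over 1000 CPM in the 10 libraries, 3 were higher and 112 lower, and their median log2 fold change was -0.79. Of 795 genes of 100 to 1000 CPM, 340 were lower and 164 higher (median -0.45). The order turned in the classes below. Of 6669 genes of 10 to 100 CPM, 2515 were higher and 1713 lower (median 0.16), and of 6803 genes of 1 to 10 CPM, 2269 were higher and 1356 lower (median 0.19). Below 1 CPM, 258 of 2031 genes were higher and 359 lower (median -0.21). CPM counts reads and is not a level per length, but over 1000 CPM the lower calls outnumbered the higher ones in every quintile of gene length, by 40 to 2, 29 to 0, 23 to 0, 14 to 0 and 6 to 1 from the shortest to the longest.

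Scaled by library totals, 12 of 160 genes over 1000 CPM were higher and 94 lower, so the direction of this class did not turn with the scaling. The class of 100 to 1000 CPM became near even, with 236 lower and 252 higher and a median log2 fold change of -0.05. Below 1 CPM the direction did turn, with 371 higher and 193 lower. The classes of 1 to 10 and 10 to 100 CPM kept more higher than lower genes with library totals, 3001 to 655 and 3540 to 791. With upper-quartile scaling the class of 10 to 100 CPM had 2052 higher and 2152 lower genes. Without 27-week replicates 4 and 5, 113 genes over 1000 CPM were lower and 5 higher. At 1 to 10 CPM they were 1893 higher and 1527 lower without these replicates. The count of higher genes over 1000 CPM rested on single libraries: it was 5 without 27-week replicate 4 and 5, 6, 7, 7 and 6 without 9-week replicates 1 to 5, one at a time. Among the 100 genes with the highest mean CPM 63 were lower and 1 higher, while among the first 20 of them 8 were lower and 0 higher and among the first 10 of them 2 were lower and 0 higher at a median log2 fold change of -0.18.

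**Figure D3:**
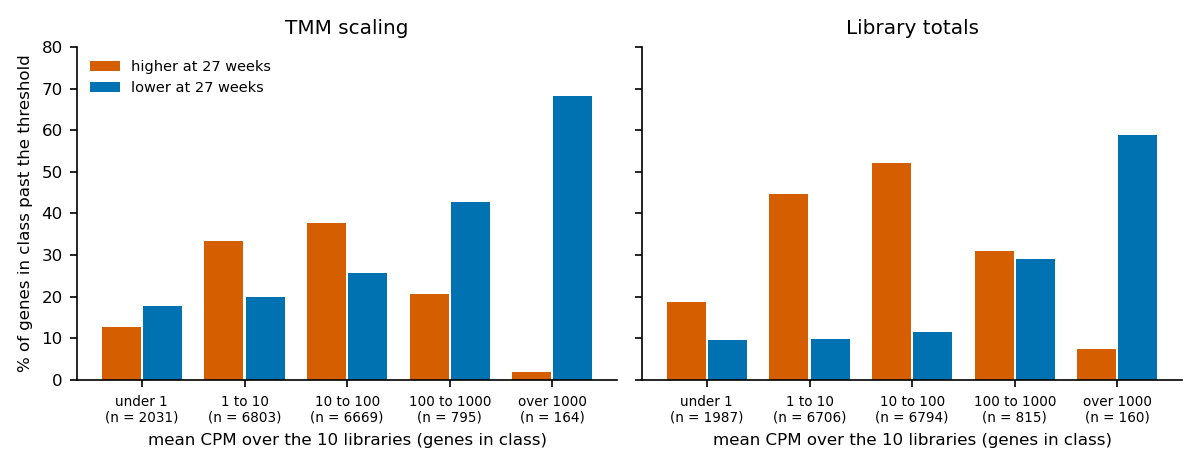
Bars give the percentage of genes in each class of mean CPM that were higher (orange) or lower (blue) at 27 weeks (titles JM132 to JM136) than at exercised 9 weeks, edgeR adjusted p under 0.05. The left panel uses TMM and the right panel library totals, and in both more genes over 1000 CPM were lower than higher, 112 with TMM and 94 with library totals.

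The contrast between abundance classes was also measured within each library, where the library's scaling factor cancels apart from the pseudocount. For each library the median deviation from the mean of all 20 libraries, in log2(CPM + 0.1), was taken over the 174 genes over 1000 CPM and over the 6347 genes of 10 to 100 CPM, and the second was subtracted from the first. The difference was -0.39, -0.41, -0.43, -0.82 and -0.92 in 27-week replicates 1 to 5, and 0.34, 0.37, 0.39, 0.37 and 0.18 in 9-week replicates 1 to 5. Every 27-week liver of these titles lay below every 9-week liver, and replicates 4 and 5 lay lowest. The means differed by -0.92 (exact permutation p = 0.0079, the smallest possible, n = 5 each), and by -0.74 without replicates 4 and 5. In the other groups the measure ran from -0.18 to 0.19 in unexercised livers at 9 weeks and from 0.12 to 0.41 in the 27-week livers of titles JM140 to JM144. All 15 of these other livers of the series therefore lay above the 5 livers of titles JM132 to JM136. This measure and both length measures below were chosen after the calls by class had been seen in the same libraries. Their 3 p-values were 0.0079 after adjustment, which does not account for that choice. They describe the calls by class in each library and are no independent result.

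Gene length went along with the direction of change, and its direction depended on abundance. Lengths were recovered from the deposited RPKM table for 16364 of the tested genes. In the shortest quintile (up to 1164 bp) 1168 of 3276 genes were higher and 701 lower, a median log2 fold change of 0.21. In the longest quintile (over 5468 bp) 766 of 3272 were higher and 957 lower (median -0.11). With library totals the longest quintile had 1148 higher and 453 lower genes, and without 27-week replicates 4 and 5 it had 610 higher and 1096 lower. With library totals its share of higher calls, 71.7%, was still the lowest of the quintiles, against 80.6% in the shortest. Among genes of 10 to 100 CPM, the median log2 fold change was 0.33, 0.32, 0.29, 0.15 and -0.07 from the shortest to the longest quintile. Among genes of 1 to 10 CPM it was 0.31, 0.31, 0.16, 0.20 and -0.10. Among genes of 100 to 1000 CPM the order was the other way, with -0.73, -0.43, -0.38, -0.25 and -0.17. Over 1000 CPM it was -0.78, -0.82, -0.79, -0.68 and -0.47, and under 1 CPM -0.03, -0.05, -0.18, -0.29 and -0.54. CPM is not a level per length, so short and long genes of the same class differ in reads per length. Length was therefore not separated from level per length here.

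Within each library, the median deviation of the shortest quintile minus that of the longest quintile gave this contrast with the scaling factor cancelled in the same way. Over genes of 1 to 100 CPM (2504 short, 2831 long) it was 0.20, 0.27, 0.35, 0.14 and 0.14 in 27-week replicates 1 to 5. The 9-week replicates had -0.10, -0.16, -0.06, -0.19 and -0.14. The groups did not overlap, with a difference of means of 0.35 (exact permutation p = 0.0079), and of 0.40 without replicates 4 and 5. Over genes of 100 CPM or more (194 short, 160 long) it was -0.20, -0.11, -0.12, -0.24 and -0.30 at 27 weeks. The 9-week replicates had 0.17, 0.27, 0.19, 0.17 and -0.05. The groups again did not overlap and differed by -0.35 (exact permutation p = 0.0079), and by -0.30 without replicates 4 and 5. Here, however, the unexercised livers at 9 weeks, at -0.17 to -0.01, overlapped the 27-week livers. In the livers of titles JM140 to JM144 the first length measure ran from -0.09 to 0.16, which overlapped the range of titles JM132 to JM136, and the second from 0.01 to 0.25.

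**Figure D4:**
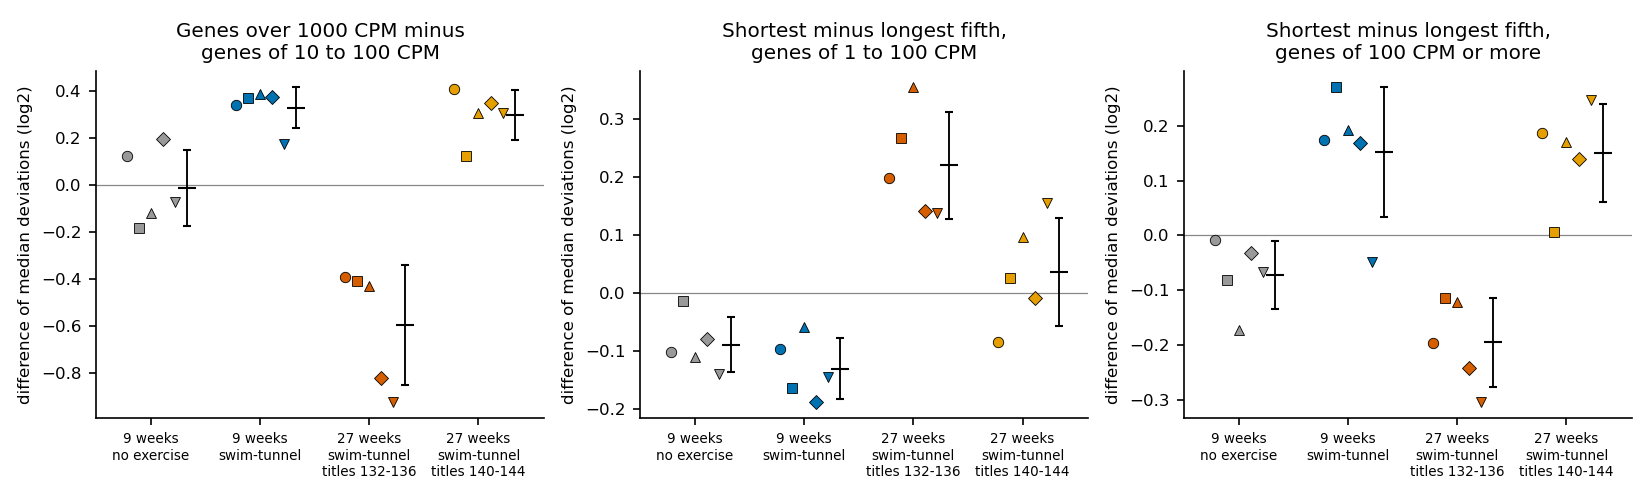
Each point is 1 of the 20 libraries by group, with mean and SD (n = 5) as bars, and each y axis gives the difference between the median deviations of 2 gene classes on the log2 scale. In the left panel (genes over 1000 CPM minus genes of 10 to 100 CPM) the 27-week livers of titles JM132 to JM136 lie below all others, from -0.92 to -0.39, while the length panels show overlap with titles JM140 to JM144 (middle) or with unexercised livers (right).

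Spread among the livers of each group is given as a description. The median over genes of the within-group SD of log2 CPM was 0.366 at 27 weeks and 0.264 at 9 weeks, and 63.8% of the genes had the larger SD at 27 weeks. Over 1000 CPM the median SDs were 0.354 and 0.172, and 85.4% of the genes were wider at 27 weeks. The range between the lowest and the highest library exceeded 4-fold in 2565 genes at 27 weeks and in 1391 at 9 weeks. 27-week replicates 4 and 5 were the library farthest from the group median in 29.9% and 24.9% of the genes, and 27-week replicate 2 in 8.74%. At 9 weeks, replicates 4 and 5 were farthest in 24.4% and 27.1%, so this share alone does not set the 27-week replicates apart. Over 27-week replicates 1 to 3 alone the median SD was 0.231, and 43.3% of the genes were wider there than in the 5 livers at 9 weeks. Over 1000 CPM the median SD of replicates 1 to 3 was 0.149, and 46.3% of the genes were wider. The wider spread at 27 weeks was thus not seen without replicates 4 and 5. An SD over 3 libraries tends to fall below an SD over 5 at equal spread, so these values do not show a smaller spread. The difference in spread between the groups was not tested.

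Set against the whole series, all 5 livers of titles JM132 to JM136 lay above the other 15 livers in 1777 genes and below them in 1455, which is 19.6% of the genes tested. Replicates 1 to 3 without replicates 4 and 5 lay above the other 15 in 2610 genes and below them in 2030, 28.2%, where fewer livers have to lie apart. The same count for the exercised 9-week livers was 397 genes, or 2.41%. It was not made for the unexercised livers or titles JM140 to JM144, and the genes were filtered on the 10 libraries of the comparison. Fitted pairwise on 10 libraries each, the livers of titles JM132 to JM136 differed from unexercised 9-week livers in 47.0% of the genes tested and from titles JM140 to JM144 in 46.0%. The livers of titles JM140 to JM144 differed from the exercised 9-week livers in 3037 of 16145 genes, 18.8%. These comparisons share libraries and are given side by side. They were not tested against each other.

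Of the 16462 genes tested, 31.6% were called higher and 23.6% lower. Among all 16462, 2217 higher and 1504 lower genes passed the threshold with a change of at least 2-fold and no overlap between the groups. Of these, the 2 higher genes with the highest mean CPM at 27 weeks and the 2 lower genes with the highest mean CPM at 9 weeks are described by identifier. Their levels are CPM scaled over all 20 libraries, while fold changes come from the fit of the 10 libraries.

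Nfu_g_1_000910, with a recovered length of 456 bp, had 3273, 2440, 2776, 2691 and 3608 CPM in 27-week replicates 1 to 5. The 9-week livers had 984, 642, 656, 496 and 560 CPM. Every 27-week liver had a level well above that of the highest 9-week liver. This was a log2 rise of 2.22 ± 0.21 (SE, edgeR adjusted p = 1.3e-05). The livers of titles JM140 to JM144 had 3962 ± 2310 CPM (SD, n = 5, range 2437 to 7990), and unexercised 9-week livers 994 ± 166 CPM (SD, n = 5). Between the titles JM132 to JM136 and JM140 to JM144 it missed the threshold, with a log2 difference of -0.40 ± 0.32 (SE, edgeR adjusted p = 0.33), and against unexercised 9-week livers it was higher by 1.57 ± 0.17 (SE, edgeR adjusted p = 6.5e-05).

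Nfu_g_1_008461, with a recovered length of 3099 bp, had 1519, 1908, 2464, 1073 and 1183 CPM in 27-week replicates 1 to 5. The 9-week livers had 129, 168, 82.4, 411 and 126.8 CPM. The groups were far apart. Of the 9-week livers replicate 4 was the highest, and of the 27-week livers replicate 4 was the lowest, but replicate numbers do not pair libraries between groups. The rise was 3.21 ± 0.45 on the log2 scale (SE, edgeR adjusted p = 0.00019), or 3.75 without 9-week replicate 4. Livers of titles JM140 to JM144 had 412 ± 190 CPM and unexercised 9-week livers 204 ± 59.8 CPM (SD, n = 5 each). The titles JM132 to JM136 were above both, by 1.99 ± 0.32 and 2.98 ± 0.28 on the log2 scale (SE, edgeR adjusted p = 0.00074 and 2.8e-05).

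Nfu_g_1_004806, with a recovered length of 1950 bp, had 4564, 3150, 4203, 1730 and 2013 CPM in 27-week replicates 1 to 5. The 9-week livers had 17501, 11286, 15170, 9762 and 9767 CPM. The lowest 9-week liver was above the highest 27-week liver, and 27-week replicates 4 and 5 were the lowest of all. The log2 change was -1.96 ± 0.30 (SE, edgeR adjusted p = 0.00033), or -1.69 without replicates 4 and 5. Livers of titles JM140 to JM144 had 9251 ± 1450 CPM and unexercised 9-week livers 7044 ± 2045 CPM (SD, n = 5 each), and all 10 lay above the livers of titles JM132 to JM136. The differences were -1.56 ± 0.26 and -1.18 ± 0.30 on the log2 scale (SE, edgeR adjusted p = 0.00081 and 0.0090).

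Nfu_g_1_022309, with a recovered length of 2385 bp, had 4140, 4665, 4098, 1508 and 2236 CPM in 27-week replicates 1 to 5. The 9-week livers had 14441, 9588, 11643, 9796 and 9935 CPM. The groups did not overlap, and replicates 4 and 5 were again the lowest. The log2 change was -1.68 ± 0.29 (SE, edgeR adjusted p = 0.00078), or -1.38 without replicates 4 and 5. Livers of titles JM140 to JM144 had 10662 ± 1940 CPM (SD, n = 5), above all livers of titles JM132 to JM136, a difference of -1.68 ± 0.29 (SE, edgeR adjusted p = 0.0010). The unexercised 9-week livers had 5086 ± 1778 CPM (SD, n = 5, range 3902 to 8176), which overlapped the livers of titles JM132 to JM136, and this difference of -0.63 ± 0.33 missed the threshold (SE, edgeR adjusted p = 0.15). In none of these 4 genes did leaving out 1 library or any other setting tried end the call. The genes were picked for calls without overlap in the same libraries, so this is no independent result. Of all calls, 82.0% passed in every fit with 1 library left out.

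**Figure D5:**
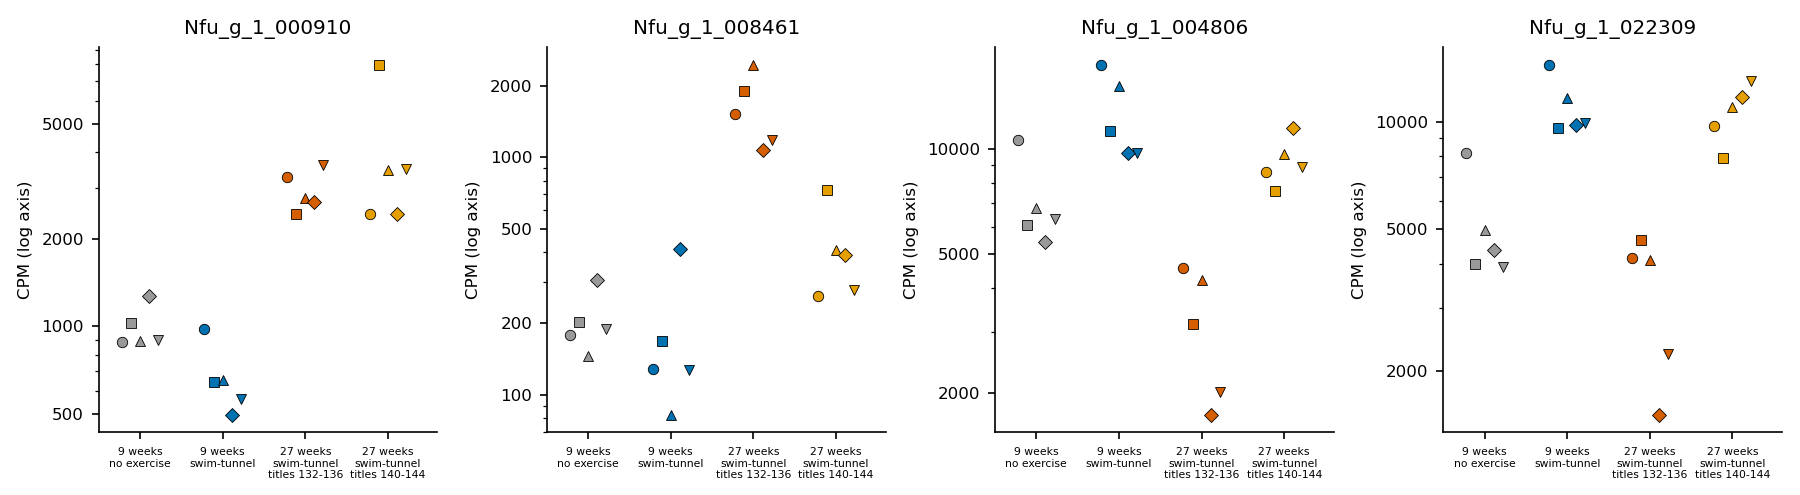
Each point is the CPM (scaled over all 20 libraries, log axis) of 1 library in 1 of the 4 groups, for each of the 4 genes given by identifier. Nfu_g_1_000910 is high in both sets of 27-week livers, and Nfu_g_1_008461 is highest in titles JM132 to JM136 (1073 to 2464 CPM). Nfu_g_1_004806 and Nfu_g_1_022309 are low in titles JM132 to JM136 but not in titles JM140 to JM144. In unexercised 9-week livers Nfu_g_1_022309 (3902 to 8176 CPM) overlaps titles JM132 to JM136, and Nfu_g_1_004806 (5437 to 10596 CPM) lies above them.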

How the data were processed

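Liver RNA libraries were made with Illumina's TruSeq RNA kit v2, per the labels' protocols. The authors deposited raw counts for 26739 gene identifiers, made with tools that include STAR 2.4.1d, featureCounts 1.4.6-p4 and bcl2fastq 1.8.4, per the submitters' processing notes. The build, the strandedness and the handling of multi-mapped reads: not given in the sources used here. Counts of genes with near-identical copies or overlapping neighbours are therefore uncertain. The authors also deposited an RPKM table, treated as a score: each value equals the count divided by gene length and by a library total cycled through the 20 libraries down the table. The implied length then varied by at most 0.00475% (CV, 3127 genes above 5 in all libraries), against a median of 24.1% with each library's own total. Only lengths were taken from it.

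Counts were tested with edgeR 4.0.16 in R 4.3.3 (filterByExpr, TMM, robust quasi-likelihood F-test, adjusted p under 0.05) on the 10 libraries. Standard errors were derived from the F statistic, and log2 CPM carries a prior count of 2. Alternatives were DESeq2 1.42.0, limma 3.58.1 voom, other scalings and filters, a test against a fold of 1.5, and left-out libraries. On simulated counts (16257 genes tested, 200 changed before the filter on low counts) edgeR recovered 48.0% of 2-fold and 85.7% of 4-fold changes, with 9 false calls. The simulation changed far fewer genes than the 9089 called in the comparison, and the adjusted p depends on how many genes change. Each gene was drawn independently, so variation shared by groups of genes within 1 library was not simulated. Both groups were drawn with the same spread for a gene, so the unequal spread of the groups was not simulated. These values therefore hold for few changed genes, independent genes and equal spread in both groups. Recovery and false calls with as many changed genes as were called were not tested. No 2 libraries within a group agreed within counting noise (lowest chi-square per degree of freedom 55.8 over 20 pairs).

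The 4 identifiers follow a rule on call, change, overlap and mean CPM. The comparison and this rule were chosen with earlier results of these data known. Gene lists and markers need names and were not used. No sequence is given, since the identifiers could not be matched.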

Additional observations from a re-analysis of the deposited data

Results flagged for a closer look

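In 38 groups of 5 values, 6 had a single library far from the other 4, where about 1 in 20 groups is flagged by chance. At 9 weeks, exercised replicate 5 stood apart in 2 related library measures: its 100 most abundant genes took 49.0% of the counts, and its difference between genes over 1000 CPM and genes of 10 to 100 CPM was 0.176. Exercised 9-week replicate 4 had 411 CPM of Nfu_g_1_008461, above the other 4. Unexercised 9-week replicate 1 had 10596 CPM of Nfu_g_1_004806 and 8176 CPM of Nfu_g_1_022309, both above the other unexercised livers. The second 27-week liver of titles JM140 to JM144 had 7990 CPM of Nfu_g_1_000910.

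The change from exercised 9-week livers differed between the 27-week livers of titles JM132 to JM136 and JM140 to JM144 in 3 of the 4 genes given by identifier, by the direct test between those livers, which called 46.0% of all genes tested. The 4 genes were picked for large changes in the same JM132 to JM136 libraries, so this is no independent result. The log2 difference was 1.99 for Nfu_g_1_008461, -1.56 for Nfu_g_1_004806 and -1.68 for Nfu_g_1_022309 (edgeR adjusted p = 0.00074, 0.00081 and 0.0010).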

How the results depend on the processing

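The count of changed genes was 8163 to 9224 with 1 library left out and 4809 when tested against a fold of 1.5. It was 9728 with the Wald test of DESeq2, 9504 with limma voom and 9936 with all 20 libraries in the fit. With library totals, 12 genes over 1000 CPM were higher, and the lower calls were 655 at 1 to 10 CPM, 375 in the shortest and 453 in the longest quintile. The count of higher genes over 1000 CPM was 5 without 27-week replicates 4 and 5 together, and 3 to 7 with 1 library left out. The difference in TMM factor ran from 0.227 to 0.320 with 1 library left out and was 0.147 without 27-week replicates 4 and 5 (exact permutation, adjusted p = 0.089), where fewer libraries raise the smallest possible p. The difference in the share of the 100 most abundant genes ran from -7.11 to -4.40 percentage points, and passed the threshold without 9-week replicate 5 (exact permutation, adjusted p = 0.040). The differences in total count and in genes detected, neither past the threshold, changed sign: from -3.41 to 0.684 M and from -45.4 to 150.8 genes with 1 library left out, and 1.69 M and -42.7 genes without 27-week replicates 4 and 5. The median SD of the 27-week livers was 0.231 over the 3 libraries left without those replicates, which is not like an SD over 5. For the library measures, the spread and the genes beyond all 15 other livers, leaving out both replicates was chosen after seeing the data. Of the other results followed through these settings, those tested kept direction and side of the threshold, and counts stayed within 1.5 times. Not all counts were followed in this way. All lower calls went from 3880 with TMM to 1969 with library totals, and those at 10 to 100 CPM from 1713 to 791. The balance between higher and lower calls turned with library totals in some classes, as given above. No paired analysis was possible because the labels give no replicate numbers shared between the groups. The simulation kept these depths and gave each gene the same spread in both groups, but drew genes independently and changed only 200. In it, 6.12% of 1.5-fold changes were recovered. Recovery with as many changed genes as were called was not tested.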
